A study of Homo sapiens with 6 samples.

Results

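The D-type cyclins, their partner kinases CDK4 and CDK6, and the inhibitors of these kinases were examined in A549 cells. The genes were CCND1, CCND2, CCND3, CDK4, CDK6, CDKN1B, CDKN2A, CDKN2B, CDKN2C and CDKN2D, and every probe set that the platform annotation assigns to 1 of these symbols alone was taken. That gave 15 probe sets of 9 genes, out of 22215 probe sets tested and 11963 named genes. CDKN2C matched no probe set in that annotation and was not analysed here. A549 is an established human lung adenocarcinoma line, and 6 Affymetrix arrays were compared in 3 groups of 2. The first group was transfected with a pCMV5 vector for human PIAS3, which inhibits STAT3 and ligates SUMO to proteins, under a viral promoter. The second was transfected with an siRNA against STAT3. The third, the control, was stimulated with EGF and is described in the labels as untreated with either agent. The series' design text gives serum-free medium and EGF to all 3 groups, while EGF appears only in the control arrays' titles. Cells were seeded 12 h ahead in medium with 10% FBS, and RNA of transfected cells was taken 48 h after transfection. An empty-vector or scrambled-siRNA group was not analysed here, so transfection itself and the agent cannot be told apart in the comparisons with control. No time of harvest is given here for the control, and whether transfected cells received EGF is unclear. Any difference in EGF or in time could not be told apart from the agent either. Whether arrays of 1 group stem from different cultures is not stated, so the p-values reflect array-to-array spread that may be technical, and 2 arrays per group limit the precision. In bulk RNA, fewer cells expressing a gene and less of its RNA per cell cannot be told apart.

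D-type cyclins are the regulatory subunits that switch on CDK4 and CDK6 in G1, when growth factors such as EGF are present. The active kinases phosphorylate the retinoblastoma protein, which then releases E2F transcription factors, and E2F turns on the genes of DNA replication. The INK4 proteins, products of CDKN2A, CDKN2B, CDKN2C and CDKN2D, bind CDK4 and CDK6 and keep cyclin D off them, while p27, the product of CDKN1B, inhibits cyclin E with CDK2 and is held by cyclin D complexes. CCND1 is widely described as a gene that STAT3 can activate. A549 cells are known to have lost the CDKN2A locus by homozygous deletion.

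Levels below are the deposited log2 values of a probe set, and differences are log2 differences between group means with the standard error of a limma fit. A difference passed the test where its Benjamini-Hochberg adjusted p over all 22215 probe sets was under 0.05. Array medians lay between 6.63 and 6.72. Control probe sets for a bacterial transcript taken as absent from the samples read 3.26 to 3.93. That range, from 3 probe sets, is used as a floor. A level above it does not by itself show that a gene is expressed. PIAS3 replicate 1 stood apart: the median level of 12 interferon-stimulated genes was 9.88 on it, against 5.25 on PIAS3 replicate 2, 5.27 and 5.41 on the STAT3 siRNA arrays and 5.26 and 5.37 on the control arrays. Poly-A spike-in probe sets on that array read 1.44 above the control mean (median). Actin probe sets at the 3' end exceeded those at the 5' end by 0.43 and 0.28 on the PIAS3 arrays and 0.16 and 0.23 on the STAT3 siRNA arrays, against 0.12 and 0.095 on the control arrays, and the part of this in the results was not tested. The STAT3 siRNA arrays differed from each other with an SD of 0.25 over probe sets. Replicate 2 was nearer to PIAS3 replicate 2, at 0.19, and replicate 1 was nearer to the control arrays, at 0.21 and 0.20. The PIAS3 arrays differed from each other more, with an SD of 0.35. PIAS3 replicate 2 was nearer to the control arrays, at 0.27 and 0.28, than to PIAS3 replicate 1. Each STAT3 siRNA mean and each PIAS3 mean therefore averages unlike arrays. STAT3 itself read 10.18 and 9.70 on the PIAS3 arrays and 10.23 and 9.94 on the STAT3 siRNA arrays, against 10.50 and 10.43 on the control arrays, and PIAS3 read 7.78 and 7.72, 7.50 and 7.64, and 7.70 and 7.71 in the same order. Neither gene passed against control, and for PIAS3 the probe set was not checked against the plasmid's sequence. The epithelial keratins KRT8 and KRT18 read between 12.39 and 13.79 on all arrays, and PTPRC, which marks leukocytes, between 3.85 and 3.95. Over all arrays 5 epithelial markers ranged from 6.04 to 13.79 and 7 leukocyte markers from 3.39 to 7.09. The leukocyte marker CD3E read 6.63 to 7.09. Other markers differed more between groups. The keratin KRT19 read 9.02 and 9.34 on the PIAS3 arrays and 10.76 and 9.42 on the STAT3 siRNA arrays, against 11.16 and 11.02 on the control arrays, with a PIAS3 difference of -1.91 ± 0.38 (limma adjusted p = 0.104). For PIAS3 against control the epithelial adhesion genes EPCAM and CDH1 stood at -0.66 ± 0.32 and 1.09 ± 0.16, and CD14, a monocyte marker, at 0.84 ± 0.13 (limma adjusted p = 0.424, 0.0761 and 0.0792). None of these passed, and their part in the results was not tested. The log2 of the summed linear levels of 7 leukocyte markers lay at 8.56 to 8.75 on the PIAS3 arrays and 8.30 to 8.52 on the STAT3 siRNA arrays, against 8.37 to 8.38 on the control arrays. For 5 epithelial markers it lay at 14.27 to 14.36, 14.27 to 14.31 and 14.37 to 14.51 in the PIAS3, STAT3 siRNA and control groups, and for 4 alveolar type II markers between 8.60 and 8.81 on all arrays. For 7 fibroblast markers it lay between 9.41 and 9.63 on all arrays, and for 5 endothelial markers between 7.64 and 7.80.

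No member passed the test in any comparison. For PIAS3 against control 0 of 15 member probe sets were called (limma), where 0.099% of all probe sets were, and 4 of 15 had an unadjusted p under 0.05, against 13.9% of all. With the STAT3 siRNA against control, 0 of 15 were called against 0.0045% of all, and 1 of 15 had an unadjusted p under 0.05, against 4.85%. In PIAS3 against STAT3 siRNA, 0 of 15 were called against 0% of all, and 1 of 15 had an unadjusted p under 0.05, against 8.1%. The arrays of the 2 groups did not overlap for 9 of 15 member probe sets in PIAS3 against control, where the share over all probe sets was 45.4%. Of the 9, 5 were higher (21% of all) and 4 lower (24.4% of all). The same count was 3 of 15 for the STAT3 siRNA against control (37.5% of all) and 5 of 15 for PIAS3 against STAT3 siRNA (35% of all). The median difference of the 15 was 0.03, -0.01 and 0.003 in these comparisons, where that of all probe sets was -0.01, -0.003 and -0.01. The 2 comparisons against control share the control arrays, so their values are set side by side and their likeness is no result. The members that stood farthest from control were CCND3 above it, and CDK4 and CCND1 below it.

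**Figure D1:**
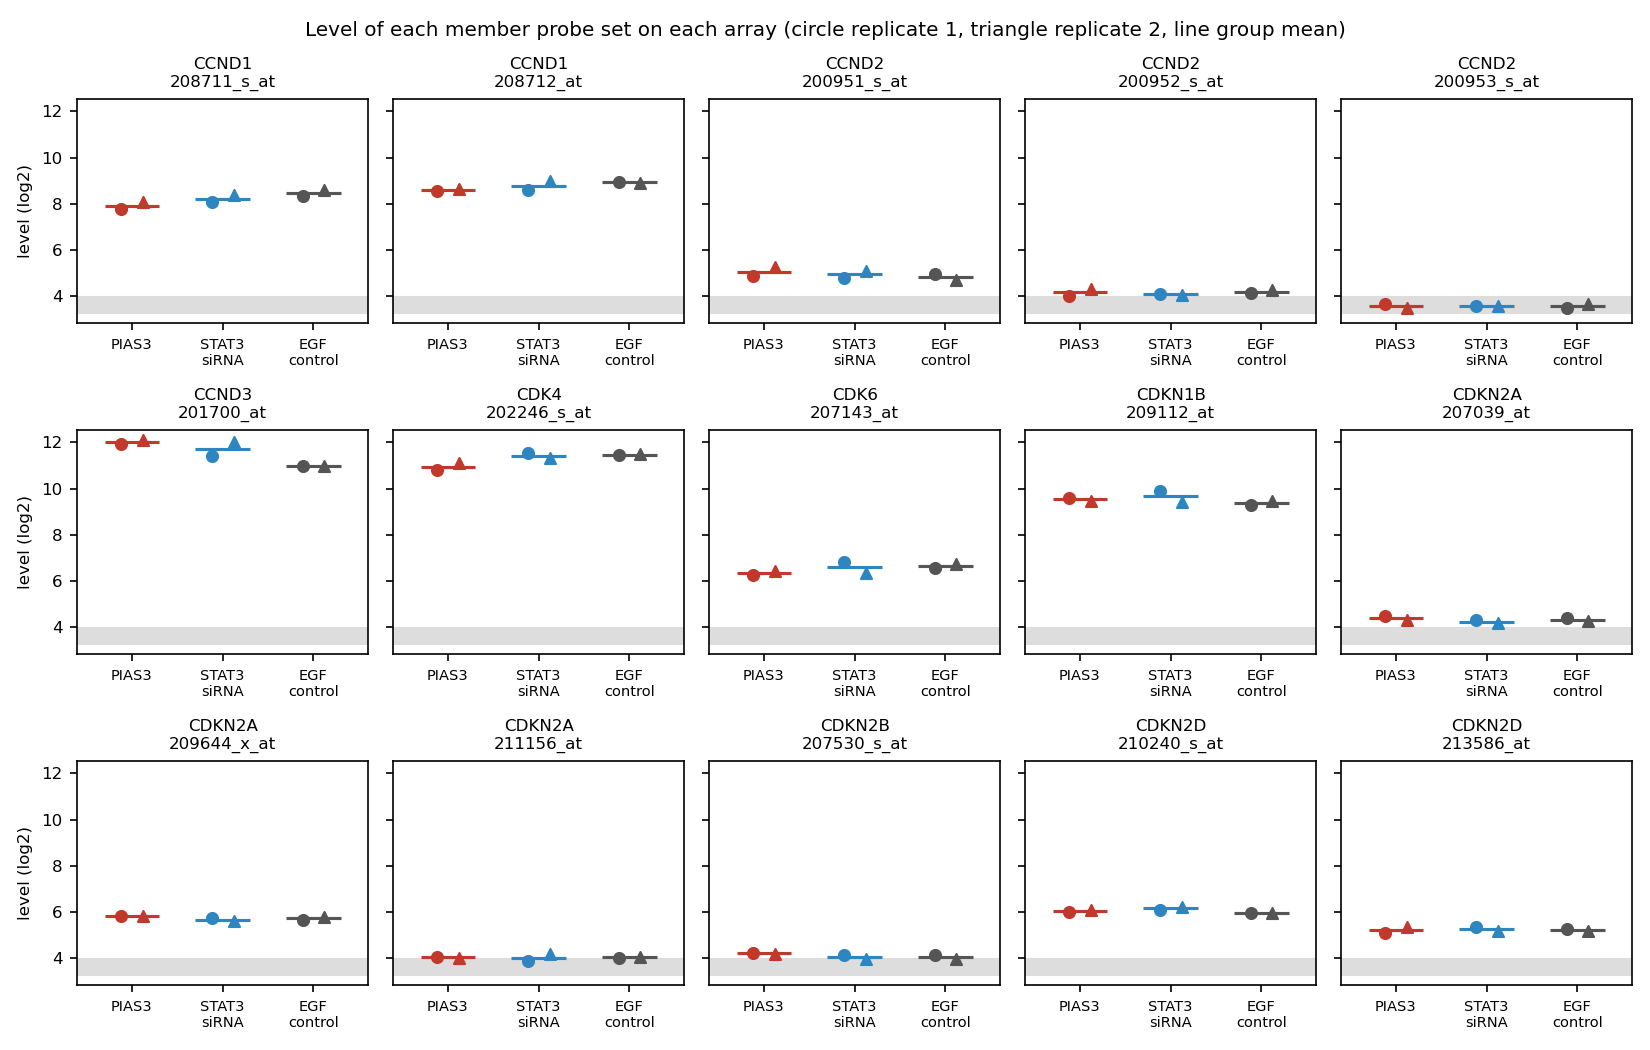
Level (log2) of each of the 15 member probe sets on each array, with PIAS3 (red), STAT3 siRNA (blue) and EGF control (grey) from left to right, circles for replicate 1, triangles for replicate 2 and a line at the group mean. The grey band is the range of the absent-transcript control probe sets, 3.26 to 3.93, and CCND3 is the panel with the largest spread, 10.96 to 12.10.

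Among the cyclins, CCND3 stood farthest from control. It encodes cyclin D3, the D-type cyclin prominent in lymphoid and other differentiating cells, and was measured by a single probe set (201700_at). CCND3 read 11.92 and 12.10 on the PIAS3 arrays and 11.40 and 12.01 on the STAT3 siRNA arrays, against 10.99 and 10.96 on the control arrays. All 4 transfected arrays lay above both controls, and STAT3 siRNA replicate 2 read within the range of the PIAS3 arrays while STAT3 siRNA replicate 1 read between them and the controls.

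The difference of PIAS3 from control was 1.03 ± 0.20 (SE, n = 2 per group), a 2.04-fold higher level, with a limma adjusted p of 0.0973 and a 95% interval of 0.57 to 1.49. It did not pass, though it passed in a fit of these 2 groups alone (adjusted p = 0.0284), where its SE was 0.11. That fit called 262 of all probe sets in PIAS3 against control, where the fit of all arrays called 22. Without PIAS3 replicate 1, the array with high interferon-stimulated genes, the difference was 1.12 and without replicate 2 it was 0.94. With the STAT3 siRNA the difference from control was 0.73 ± 0.20 (1.66-fold, adjusted p = 0.771, interval 0.27 to 1.18). That value rested on STAT3 siRNA replicate 2, being 0.42 without it and 1.03 without replicate 1. PIAS3 differed from STAT3 siRNA by 0.30 ± 0.20 (adjusted p = 0.679, interval -0.15 to 0.76), and the 2 groups overlapped. The order of group means was PIAS3, STAT3 siRNA and control, and the first 2 did not differ beyond their spread.

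CCND3 has 3 annotated starts in the RefSeq promoter table of GRCh38.p14, all on the minus strand of chromosome 6, and the probe set does not tell which start was used. The 250 bases before each are shown because this gene had the largest difference among the members. Capitals mark GC boxes (GGGCGG on either strand), sites of the SP1 family, which 42.6% of the 35116 RefSeq windows of this length hold. The windows lie at chr6:42048689-42048938, chr6:41941809-41942058 and chr6:41939206-41939455.
CCND3 distal start: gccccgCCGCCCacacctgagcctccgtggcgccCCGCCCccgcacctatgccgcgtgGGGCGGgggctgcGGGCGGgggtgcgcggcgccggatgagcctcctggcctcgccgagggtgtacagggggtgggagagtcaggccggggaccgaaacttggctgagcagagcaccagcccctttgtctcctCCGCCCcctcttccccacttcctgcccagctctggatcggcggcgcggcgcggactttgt
CCND3 middle start: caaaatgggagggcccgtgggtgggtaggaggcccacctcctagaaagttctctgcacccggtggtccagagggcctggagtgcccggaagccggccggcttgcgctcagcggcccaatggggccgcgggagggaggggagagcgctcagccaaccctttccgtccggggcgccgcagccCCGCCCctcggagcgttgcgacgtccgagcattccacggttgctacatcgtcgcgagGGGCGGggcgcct
CCND3 proximal start: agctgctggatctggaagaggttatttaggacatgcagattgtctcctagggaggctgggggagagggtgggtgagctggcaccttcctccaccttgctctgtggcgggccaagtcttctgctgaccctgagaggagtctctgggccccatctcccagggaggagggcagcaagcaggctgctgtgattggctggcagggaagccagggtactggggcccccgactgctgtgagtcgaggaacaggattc
The distal window holds 5 GC boxes, the middle window 2 and the proximal window none of them.

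CCND1 encodes cyclin D1, the D-type cyclin that mitogens induce most directly in epithelial cells, and had 2 probe sets. The brighter (208712_at) read 8.55 and 8.61 on the PIAS3 arrays and 8.59 and 8.98 on the STAT3 siRNA arrays, against 8.94 and 8.90 on the control arrays. The dimmer (208711_s_at) read 7.75 and 8.07 on the PIAS3 arrays and 8.06 and 8.37 on the STAT3 siRNA arrays, against 8.34 and 8.59 on the control arrays. By both probe sets the PIAS3 arrays lay below both controls, and the STAT3 siRNA arrays overlapped the controls, with replicate 2 above both by the brighter probe set and between them by the dimmer.

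For PIAS3 against control the difference was -0.34 ± 0.14 by the brighter probe set (limma adjusted p = 0.358, interval -0.68 to -0.002) and -0.56 ± 0.17 by the dimmer (adjusted p = 0.205, interval -0.95 to -0.17). Neither passed, and without PIAS3 replicate 1 they were -0.31 and -0.40. With the STAT3 siRNA the differences were -0.14 ± 0.14 and -0.25 ± 0.17 (adjusted p = 0.9998 for both), with intervals of -0.48 to 0.20 and -0.65 to 0.14. The sign of the brighter turned to 0.06 without STAT3 siRNA replicate 1. PIAS3 and STAT3 siRNA differed by -0.20 ± 0.14 and -0.31 ± 0.17, which did not pass either (adjusted p = 0.709 and 0.646).

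CCND2 encodes cyclin D2. Its 3 probe sets ranged from 4.67 to 5.23 (200951_s_at), from 4.0 to 4.30 (200952_s_at) and from 3.45 to 3.67 (200953_s_at) over the 6 arrays. The last of these lay inside the range of the absent-transcript controls on every array, and its differences of 0.03 ± 0.12 for PIAS3 and 0.02 ± 0.12 for the STAT3 siRNA against control are not read as a direction. The brightest read 4.85 and 5.23 on the PIAS3 arrays and 4.78 and 5.07 on the STAT3 siRNA arrays, against 4.95 and 4.67 on the control arrays, and all groups overlapped. Its difference was 0.24 ± 0.18 for PIAS3 and 0.12 ± 0.18 for the STAT3 siRNA against control (limma adjusted p = 0.636 and 0.9998). The probe set 200952_s_at gave -0.03 ± 0.13 and -0.12 ± 0.13 (limma adjusted p = 0.955 and 0.9998). Its STAT3 siRNA arrays, at 4.08 and 4.05, lay below both controls, at 4.11 and 4.26. Groups did not overlap for 37.5% of all probe sets in that comparison. No CCND2 probe set passed.

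Of the kinases, CDK4 differed most. CDK4 pairs with any D-type cyclin, and its probe set (202246_s_at) read 10.80 and 11.10 on the PIAS3 arrays and 11.54 and 11.31 on the STAT3 siRNA arrays, against 11.44 and 11.50 on the control arrays. The PIAS3 arrays lay below the other 4 arrays, and the STAT3 siRNA and control arrays overlapped.

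PIAS3 stood -0.53 ± 0.14 from control (1.44-fold lower, limma adjusted p = 0.177, interval -0.86 to -0.19) and -0.48 ± 0.14 from STAT3 siRNA (adjusted p = 0.607, interval -0.81 to -0.15). Neither difference passed. Without PIAS3 replicate 1 the difference from control was -0.38 (adjusted p = 0.413), and with that array as the only PIAS3 array it was -0.68 (adjusted p = 0.0476), in a fit that called 1232 of all probe sets against 22 with both arrays. The STAT3 siRNA differed from control by -0.05 ± 0.14 (adjusted p = 0.9998), with an interval of -0.38 to 0.28. The order of means was control, STAT3 siRNA and PIAS3, in which control and STAT3 siRNA did not differ beyond their spread.

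The 250 bases before the CDK4 start, at chr12:57752311-57752560 on the minus strand of GRCh38.p14, are shown from RefSeq because CDK4 was the only member below both other groups on every PIAS3 array by an unadjusted p under 0.05 in both comparisons. Capitals mark GC boxes and E-boxes (CACGTG), the sites of MYC and related factors.
CDK4 start: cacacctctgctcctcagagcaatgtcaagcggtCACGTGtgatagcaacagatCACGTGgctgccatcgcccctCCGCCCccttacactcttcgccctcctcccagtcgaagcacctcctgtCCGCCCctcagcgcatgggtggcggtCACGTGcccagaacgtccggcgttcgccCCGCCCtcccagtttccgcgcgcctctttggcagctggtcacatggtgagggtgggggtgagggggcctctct
It holds 3 GC boxes and 3 E-boxes, and 6.34% of all 35116 windows hold an E-box. Of the members, 8 genes had 14 windows in that table, and CCND1 and CCND2 were not in it. The STAT motif TTCNNNGAA was in 0 of the 14 windows, and 6.57% of all windows hold it. The E2F, AP-1 and CRE motifs were likewise in 0 of the 14, where 2.79%, 6.57% and 1.65% of all windows hold them. At such low shares, a count of 0 in 14 windows is no result about the members. GC boxes were in 10 of the 14 windows, where 42.6% of all windows hold them. E-boxes were in 3, those of CDK4 and CDKN2C, and CDKN2C was not analysed on the arrays. Some genes have more than 1 window, so the windows are not independent and these counts are no result about the members. A match is a description of these letters and not a site shown to be bound.

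CDK6, the close relative of CDK4, was measured by 207143_at at 6.24 and 6.43 on the PIAS3 arrays and 6.80 and 6.35 on the STAT3 siRNA arrays, against 6.56 and 6.72 on the control arrays. The PIAS3 arrays lay below both controls, and the STAT3 siRNA arrays reached from below the lower control to above the higher. The differences from control were -0.30 ± 0.17 for PIAS3 and -0.06 ± 0.17 for the STAT3 siRNA (limma adjusted p = 0.488 and 0.9998). PIAS3 and STAT3 siRNA differed by -0.24 ± 0.17 (adjusted p = 0.697). The levels of CDK4 and CDK6 had a Pearson r of 0.87 over the 6 arrays, which is given as a description since all values come from the same arrays and groups.

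**Figure D2:**
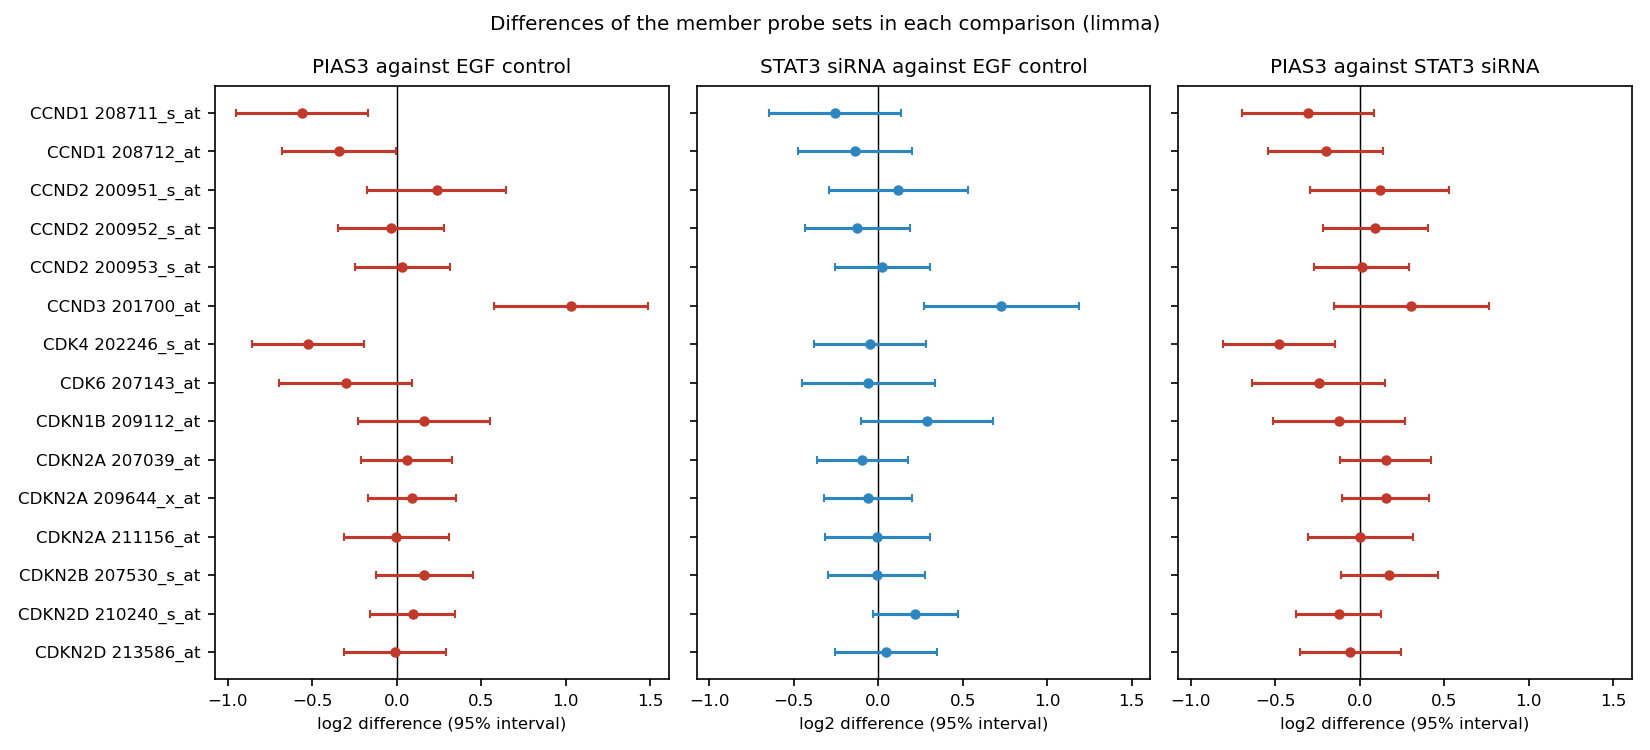
Log2 difference of each member probe set with its 95% interval (limma, 2 arrays per group) for PIAS3 against EGF control, STAT3 siRNA against EGF control and PIAS3 against STAT3 siRNA. CCND3 lies farthest to the right in the comparisons against control, at 1.03 and 0.73, and CDK4 lies left of 0 in both comparisons of PIAS3, at -0.53 and -0.48.

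Among the inhibitors, CDKN1B (209112_at), the gene of p27, read 9.61 and 9.48 on the PIAS3 arrays and 9.90 and 9.43 on the STAT3 siRNA arrays, against 9.31 and 9.46 on the control arrays. Both PIAS3 arrays lay above both controls, with PIAS3 replicate 2 only just above the higher one. STAT3 siRNA replicate 1 was the highest array and replicate 2 lay between the controls. The differences were 0.16 ± 0.17 for PIAS3 and 0.29 ± 0.17 for the STAT3 siRNA against control (limma adjusted p = 0.751 and 0.9998), with intervals of -0.23 to 0.55 and -0.10 to 0.68. The siRNA value rested on replicate 1, being 0.05 without it and 0.52 without replicate 2.

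CDKN2D, which encodes the INK4 protein p19, had a brighter probe set (210240_s_at) at 5.97 and 6.06 on the PIAS3 arrays and 6.08 and 6.20 on the STAT3 siRNA arrays, against 5.92 and 5.92 on the control arrays. The 3 groups did not overlap, in the order STAT3 siRNA, PIAS3 and control, from 5.92 to 6.20. Over all probe sets, groups did not overlap for 45.4% in PIAS3 against control and 37.5% in STAT3 siRNA against control. The share between PIAS3 and STAT3 siRNA was 35%. The differences of 210240_s_at from control were 0.09 ± 0.11 for PIAS3 and 0.22 ± 0.11 for the STAT3 siRNA. Neither passed (limma adjusted p = 0.784 and 0.9998), and both intervals included 0 (-0.16 to 0.34 and -0.03 to 0.47). The other CDKN2D probe set (213586_at) ranged from 5.07 to 5.33 with overlapping groups, and gave -0.01 ± 0.13 and 0.04 ± 0.13.

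CDKN2A encodes p16 and, from another reading frame, the p53 regulator ARF. Its 3 probe sets ranged from 4.17 to 4.45 (207039_at), from 5.59 to 5.82 (209644_x_at) and from 3.85 to 4.18 (211156_at) over all arrays. The last of these reached into the range of the absent-transcript controls on STAT3 siRNA replicate 1, and no direction is read from it. No line that carries the gene was measured beside them, and the suffix of 209644_x_at marks probes that may bind other transcripts. CDKN2B, the neighbouring INK4 gene that encodes p15, read 4.22 and 4.18 on the PIAS3 arrays and 4.12 and 3.94 on the STAT3 siRNA arrays, against 4.14 and 3.94 on the control arrays. The differences of these 4 probe sets from control lay between -0.003 and 0.16 for PIAS3 and between -0.09 and -0.007 for the STAT3 siRNA, and none passed (limma adjusted p of at least 0.640). For the 209644_x_at and CDKN2B probe sets the PIAS3 arrays lay above both controls, as for 21% of all probe sets, by differences of 0.09 ± 0.11 and 0.16 ± 0.12. Both differences were smaller than 2 standard errors, and no direction is read from them. CDKN2B read as low as 3.94, just above the absent-transcript controls. With CDKN2A known as deleted in A549, the 209644_x_at level is not read as CDKN2A RNA.

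CCND3 had the largest range of log2 levels over the 6 arrays among the members, and genes with a like pattern were sought for it. Among 3367 genes with a range of at least 0.5 over the 6 arrays, the highest Pearson r with CCND3 was found for NIF3L1 (0.996), CAMK2N1 (0.993), PFKFB3 (0.992), TM4SF4 (0.991) and CTDSP1 (0.990). CAMK2N1 encodes an inhibitor of CaM kinase II, PFKFB3 an enzyme that makes an activator of glycolysis, TM4SF4 a membrane protein with 4 membrane-spanning segments and CTDSP1 a phosphatase of RNA polymerase II. TM4SF4 read 10.30 and 10.40 on the PIAS3 arrays and 8.89 and 10.24 on the STAT3 siRNA arrays, against 8.33 and 8.32 on the control arrays. Like CCND3, each of the 5 genes was higher on STAT3 siRNA replicate 2 than on replicate 1. That order largely follows from their choice by r over these same arrays. With 6 arrays in 3 groups such values of r are a description and carry no test.

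**Figure D3:**
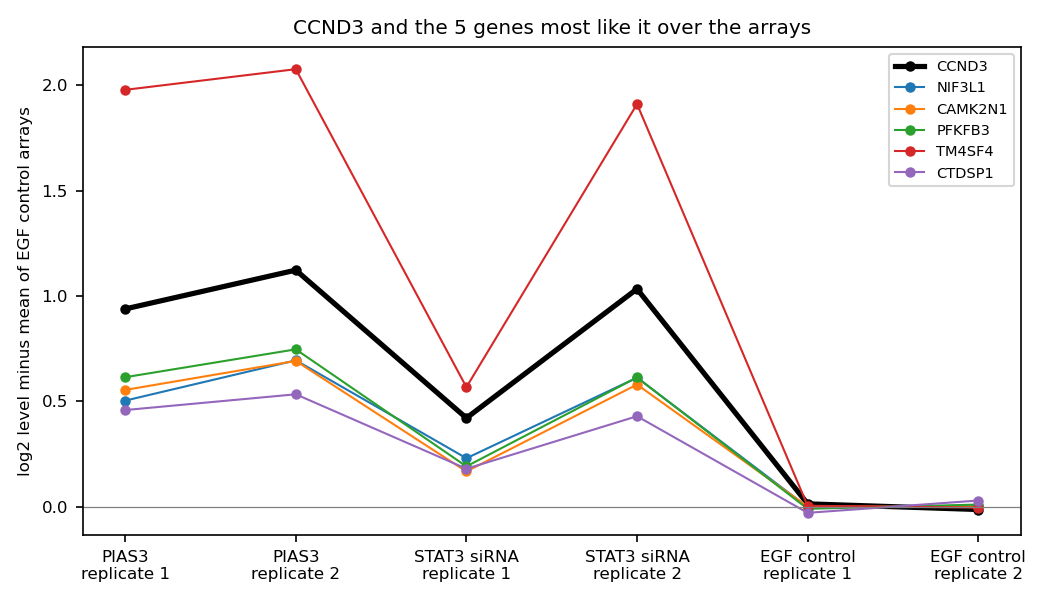
Log2 level of CCND3 (black) and of the 5 genes with the highest Pearson r to it, each minus its mean on the EGF control arrays, for the 6 arrays from PIAS3 to EGF control, with lines that only join the points of a gene. CCND3 reads 10.96 to 10.99 on the control arrays and 11.40 and 12.01 on the STAT3 siRNA arrays. All 6 genes are lower on STAT3 siRNA replicate 1 than on the other transfected arrays, which largely follows from the choice by r.

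Other genes of the pathway were taken from 3 lists, each gene by its brightest probe set. Among 22 other G1 and RB pathway genes, 0 passed in either direction for PIAS3 against control, with 1 higher and 5 lower at an unadjusted p under 0.05, where over all probe sets 6% were higher and 7.86% lower. The median difference was -0.14, and its sign turned without PIAS3 replicate 1, to 0.02. CCNE2, the cyclin that follows cyclin D at entry into S phase, read 6.51 and 7.60 on the PIAS3 arrays and 7.42 and 8.0 on the STAT3 siRNA arrays, against 8.18 and 8.35 on the control arrays. Its differences from control were -1.21 ± 0.34 for PIAS3 and -0.55 ± 0.34 for the STAT3 siRNA (limma adjusted p = 0.193 and 0.9998). TFDP1, the partner with which E2F binds DNA, stood at -0.49 ± 0.13 for PIAS3 (adjusted p = 0.168), RBL1, a relative of the retinoblastoma protein, at -0.37 ± 0.13 (adjusted p = 0.280) and TFDP2 at 0.34 ± 0.12 (adjusted p = 0.283). With PIAS3 replicate 1 as the only PIAS3 array, CCNE2 and TFDP1 stood at -1.76 and -0.64 and passed (limma adjusted p = 0.0201 and 0.0352), where 1232 of all probe sets did, against 22 with both arrays. Without PIAS3 replicate 1 they stood at -0.67 and -0.34 and did not pass. For the STAT3 siRNA 0 of 22 passed and 0 had an unadjusted p under 0.05, with a median of -0.04, and CCNA2, the cyclin of S phase and G2, stood at 0.43 ± 0.21 (adjusted p = 0.9998).

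E2F target genes of DNA replication lay lowest on PIAS3 replicate 1. Of 18 measured, 17 had a negative difference from control, as 52% of all probe sets had, and 0 passed (limma). At an unadjusted p under 0.05, 4 were lower, against 7.86% of all probe sets. The median was -0.32, and -0.05 without PIAS3 replicate 1. By array, the median shift from the control mean was -0.61 on PIAS3 replicate 1 and -0.05 on PIAS3 replicate 2, with -0.005 and -0.02 on the STAT3 siRNA arrays. CDC6, which loads the replicative helicase, read 8.29 and 9.02 on the PIAS3 arrays and 9.18 and 9.23 on the STAT3 siRNA arrays, against 9.27 and 9.39 on the control arrays. The helicase components GINS1, MCM4 and MCM7 stood at -0.70 ± 0.23, -0.44 ± 0.15 and -0.47 ± 0.19 for PIAS3 (adjusted p = 0.244, 0.254 and 0.340). With PIAS3 replicate 1 as the only PIAS3 array, CDC6, GINS1, MCM4 and MCM7 stood at -1.04, -1.07, -0.65 and -0.78 and passed (limma adjusted p = 0.0130, 0.0181, 0.0333 and 0.0232), in a fit that called 1232 of all probe sets against 22 with both arrays. Without PIAS3 replicate 1 the same genes stood at -0.31, -0.33, -0.23 and -0.16, and none passed. PIAS3 replicate 1 is also the array with high interferon-stimulated genes, whose median shift was 4.35 there and -0.0001 on replicate 2, and the part of that in the E2F and CDK4 values was not tested. For the STAT3 siRNA 0 of 18 passed, 0 had an unadjusted p under 0.05 and the median was -0.02.

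Genes that act on the level or stability of D cyclins and p27 were the third list, with 25 of 26 measured. For PIAS3 against control 0 passed (limma), 1 was higher and 5 lower at an unadjusted p under 0.05 (6% and 7.86% of all probe sets), and the median was -0.17. For the STAT3 siRNA 0 passed, 0 were higher and 4 lower at that level, where 2.08% and 2.77% of all probe sets were, and the median was -0.13. KLF4, a transcription factor known to repress CCND1 in epithelium, read 8.40 and 8.27 on the PIAS3 arrays and 8.0 and 8.39 on the STAT3 siRNA arrays, against 9.18 and 9.19 on the control arrays. Its differences were -0.85 ± 0.15 and -0.99 ± 0.15 (adjusted p = 0.0873 and 0.263). The PIAS3 difference passed in the fit of PIAS3 and control alone (adjusted p = 0.0361), which called 262 of all probe sets. The fit of all 6 arrays called 22. JUN, an AP-1 subunit that activates CCND1, stood at -0.50 ± 0.17 for PIAS3 and -0.70 ± 0.17 for the STAT3 siRNA (adjusted p = 0.251 and 0.678). CRYAB, a small heat shock protein that takes part in cyclin D1 turnover, read 6.85 and 6.63 on the PIAS3 arrays and 6.28 and 6.40 on the STAT3 siRNA arrays, against 6.25 and 6.09 on the control arrays, a difference of 0.57 ± 0.13 for PIAS3 (adjusted p = 0.123). It was 0.68 without PIAS3 replicate 2 and 0.46 without replicate 1. KLF6 and EGR1, growth factor-induced zinc finger factors, stood at -0.86 ± 0.27 and -0.76 ± 0.29 for the STAT3 siRNA (adjusted p = 0.897 and 0.9998).

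**Figure D4:**
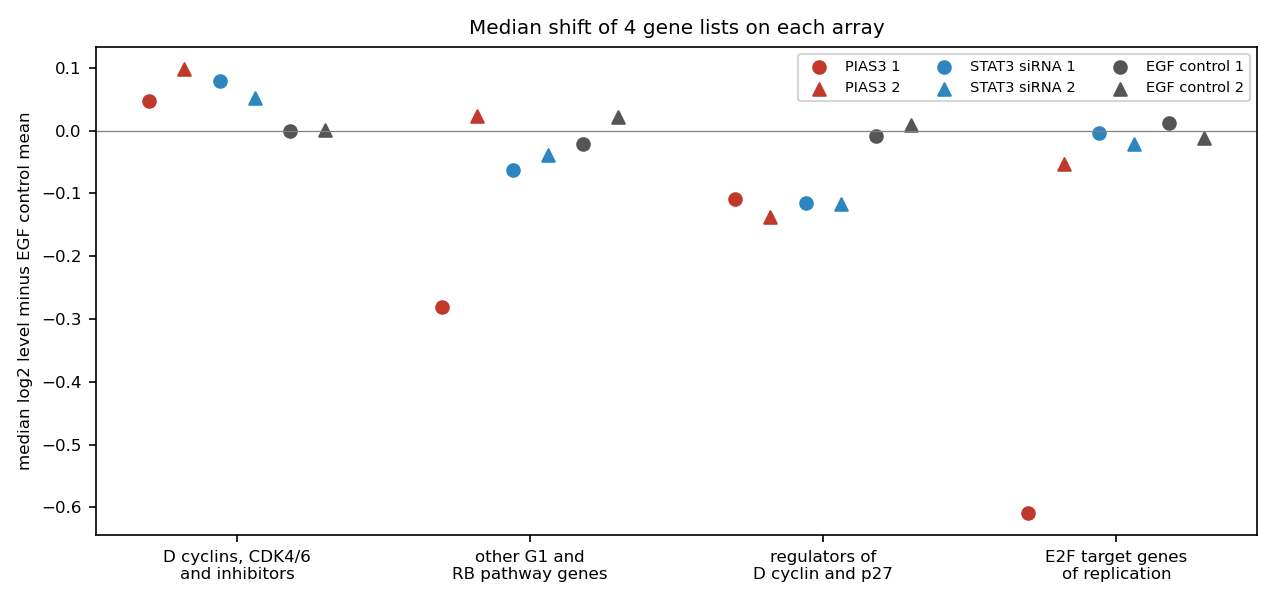
Median over genes of the log2 level minus the mean of the EGF control arrays, for the D-type cyclins, CDK4/6 and inhibitors and for 3 pathway lists, on each array (PIAS3 red, STAT3 siRNA blue, EGF control grey, circles replicate 1, triangles replicate 2). The E2F target genes stand at -0.61 on PIAS3 replicate 1 and at -0.05 on PIAS3 replicate 2.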

How the data were processed

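RNA from 6 A549 samples was hybridised to Affymetrix arrays. The authors deposited 1 log2 value for each probe set and array. RMA is the method in the submitters' processing notes, without a version. It corrects background, normalizes between arrays and summarises probes, which narrows differences of dim probe sets. Scanner settings and the build behind the annotation are not analysed here. Groups and replicate numbers came from sample titles, and 62 array control probe sets were left out of testing. Of the 22215 others, 19064 had 1 symbol, 1043 several and 2108 none in the platform annotation.

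All 6 arrays entered 1 linear model (limma 3.58.1, R 4.3.3, lmFit then eBayes), with 3 residual and 4.27 prior degrees of freedom. Tests were two-sided, with Benjamini-Hochberg adjustment over the 22215 probe sets for every comparison. The fit was tested on simulated data. Members, lists and motifs were chosen with earlier results of these data known. The rule named every member probe set, and up to 4 genes per pathway list with the smallest p in each comparison with control. The alternatives were other normalizations, a filter on dim probe sets, other limma settings, a replicate block and leaving out each array. Promoter windows came from RefSeq (GRCh38.p14), and figures were drawn with matplotlib 3.10.9.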

Additional observations from a re-analysis of the deposited data

How the results depend on the processing

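No member passed in STAT3 siRNA against control or in PIAS3 against STAT3 siRNA under any alternative run. In PIAS3 against control 0 members passed in the reported fit, 1 with only the 2 groups compared, 1 at an adjusted p of 0.10, and 0 to 1 with an array left out. The number of all probe sets past the threshold there was 22, and became 2 with quantile normalization again, 39 with cyclic loess, 2 with the filter on dim probe sets, 40 with robust eBayes, 262 with only the 2 groups compared, 143 with array weights, 254 at an adjusted p of 0.10 and 0 to 1232 with an array left out. For STAT3 siRNA against control it was 1, and became 0 with quantile normalization again, 0 with cyclic loess, 3 with only the 2 groups compared, 8 with array weights and 0 to 5 with an array left out. For PIAS3 against STAT3 siRNA it was 0, and 0 to 544 with an array left out. The cause of these shifts was not tested. The filter kept 7 of the 15 member probe sets. With 2 arrays per group, a group left with 1 array is assumed to vary like the others.

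Deviations of equal replicate numbers from their group means had correlations near 0 over probe sets (0.092, -0.059 and -0.047 in the 3 comparisons). With 2 arrays per group these values cannot show whether equal numbers share a culture or batch. With the replicate block 2 probe sets passed in PIAS3 against control, against 22 without it, and 0 members passed.

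Signs turned for differences near 0 of probe sets that lay within or reached the range of the absent-transcript controls, from which no direction is read. CDKN2A 211156_at became 0.0023 for STAT3 siRNA against control with quantile normalization again. In PIAS3 against STAT3 siRNA, CCND2 200953_s_at became -0.0033 with quantile normalization, -0.0001 centred on array medians and -0.0095 with cyclic loess, and CDKN2A 211156_at -0.0237, -0.0078 and -0.018.

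Leaving out an array gave these ranges, whose sign turned. For PIAS3 against control they were -0.1839 to 0.1177 for CCND2 200952_s_at, -0.0614 to 0.1271 for CCND2 200953_s_at, -0.0244 to 0.1406 for CDKN2A 207039_at, -0.0381 to 0.0314 for CDKN2A 211156_at and -0.1367 to 0.113 for CDKN2D 213586_at. For STAT3 siRNA against control they were -0.3343 to 0.058 for CCND1 208712_at, -0.0252 to 0.2627 for CCND2 200951_s_at, -0.0639 to 0.1076 for CCND2 200953_s_at, -0.1612 to 0.0663 for CDK4, -0.2858 to 0.1653 for CDK6, -0.1281 to 0.0039 for CDKN2A 209644_x_at, -0.1688 to 0.1556 for CDKN2A 211156_at, -0.1103 to 0.0898 for CDKN2B and -0.0369 to 0.125 for CDKN2D 213586_at. For PIAS3 against STAT3 siRNA they were -0.0723 to 0.3078 for CCND2 200951_s_at, -0.0593 to 0.2422 for CCND2 200952_s_at, -0.0832 to 0.1052 for CCND2 200953_s_at, -0.0028 to 0.6098 for CCND3, -0.3572 to 0.1115 for CDKN1B, -0.1589 to 0.1655 for CDKN2A 211156_at and -0.1808 to 0.069 for CDKN2D 213586_at.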
